A study of Mus musculus with 4 samples.

Results

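Natural killer cells and some T cells carry receptors of the NKR-P1 and NKG2 families, which are encoded side by side in the natural killer complex. The 9 genes described here are Klrb1a, Klrb1c, Klrc1, Klrc2, Klrd1, Klrk1, Klri2, Klrg1 and Styk1, a set taken by symbol from the genes of this complex outside the Ly49 family, and all 9 were found among the 31053 genes of the count matrices. They were measured in thymic invariant NKT (iNKT) cells, T lymphocytes with a semi-invariant receptor for lipids presented by CD1d. The single-cell libraries came from 2 C57BL/6 mice (labelled wildtype) and 2 Hivep3-/- mice on the C57BL/6 background, all untreated and 8 to 9 weeks old, with 1 library per mouse. Cells binding the PBS57-CD1d tetramer were sorted from the thymus as an equal mixture of CD44low and CD44high cells, so the proportions of maturation stages were partly set by the sort.

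Klrd1 encodes CD94, which forms a surface heterodimer with a member of the NKG2 family. With NKG2A, the product of Klrc1, it makes an inhibitory receptor for the non-classical MHC molecule Qa-1, and with NKG2C, the product of Klrc2, an activating receptor for the same ligand that signals through the adaptor DAP12 (Tyrobp). Klrk1 encodes NKG2D, an activating homodimer that needs no CD94 and signals through DAP10 (Hcst) and DAP12, and whose ligands are stress-induced MHC-like proteins. Klrb1c encodes NK1.1, the antigen that separates mature iNKT1 cells from earlier cells in C57BL/6 mice, and Klrb1a encodes a relative of it. Both belong to the NKR-P1 family, some members of which bind Clec2 proteins. Klri2 is a lectin-like receptor that pairs with the product of Klre1, and Klrg1 is an inhibitory receptor for cadherins found on late effector cells. Styk1 encodes a receptor-like protein kinase without a lectin domain, so it belongs to the group by position and not by family.

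On the GRCm38 (mm10) build the 9 genes lie on chromosome 6, 8 of them within 2.74 Mb. From the centromeric side these are Klrb1a (ENSMUSG00000030361, 128609227 to 128623533, minus strand), Klrb1c (ENSMUSG00000030325, 128778485 to 128789215, minus strand) and Klrd1 (ENSMUSG00000030165, 129591782 to 129598775, plus strand). They are followed by Klrk1 (ENSMUSG00000030149, 129610323 to 129623864, minus strand), Klrc2 (ENSMUSG00000052736, 129647496 to 129660689, minus strand) and Klrc1 (ENSMUSG00000030167, 129666015 to 129678973, minus strand). Klri2 (ENSMUSG00000043932, 129729041 to 129740484, minus strand) and Styk1 (ENSMUSG00000032899, 131299142 to 131353597, minus strand) close the group. Klrg1 (ENSMUSG00000030114, 122270596 to 122282882, minus strand) lies apart, so that the 9 genes together span 9.08 Mb. Klrd1 was the single member on the plus strand.

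Several members have a close relative, and reads over stretches that both copies share cannot be assigned to 1 of them. The coding stretches of 120 bases in which the NKR-P1 pair and the NKG2 pair are most alike without being identical are shown here because they mark where the counts of these genes could be mixed. They come from the GENCODE vM21 transcripts of the same build, are written 5′ to 3′ along the transcript, and capitals mark the bases at which the copies differ.
Klrb1a: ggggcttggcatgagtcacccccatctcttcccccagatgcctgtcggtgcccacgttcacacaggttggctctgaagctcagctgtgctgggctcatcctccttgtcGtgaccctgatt
Klrb1c: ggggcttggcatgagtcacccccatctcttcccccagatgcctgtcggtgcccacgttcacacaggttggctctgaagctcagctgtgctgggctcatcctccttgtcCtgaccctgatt
Klrc1: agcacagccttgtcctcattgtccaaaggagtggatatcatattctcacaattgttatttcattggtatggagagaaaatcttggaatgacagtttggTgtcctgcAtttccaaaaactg
Klrc2: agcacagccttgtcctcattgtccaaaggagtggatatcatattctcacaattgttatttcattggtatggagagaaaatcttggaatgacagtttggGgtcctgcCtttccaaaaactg
Klrb1a and Klrb1c matched at 119 of these 120 bases, and Klrc1 and Klrc2 at 118 of 120. Over their whole coding sequences the identity was 77.9% for Klrb1a with Klrb1c, 81.7% for Klrc1 with Klrc2 and 89.2% for Klrc2 with its neighbour Klrc3. Because the chemistry counted the 5′ ends of transcripts, the first 500 transcript bases matter most. There, 1.65% of the 90-base windows of Klrb1a also occurred in Klrb1c, 5.05% of those of Klrc1 in Klrc2, 2.15% of those of Klrc2 in Klrc1 and 16.5% of those of Klrc2 in Klrc3. Klri2 shared none of its 411 windows there with Klri1. Values of Klrc1 and Klrc2 are therefore uncertain to that extent, and those of Klrb1a and Klrb1c to a smaller one.

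The files held 22279 barcodes, of which 19647 passed the filters on genes, UMIs and mitochondrial share (3651 to 7231 cells per library, with 25518692 to 45022744 UMIs). Median depth was lower in C57BL/6 (4596 and 5268 UMIs per cell) than in Hivep3-/- (6833 and 6491), and 185 kept barcodes occurred in more than 1 library. Hivep3 itself was not lower in the libraries labelled Hivep3-/-, with 101 and 68.0 counts per 1000000 UMIs (CPM) against 38.5 and 36.4 in C57BL/6. Which stretch of Hivep3 was deleted is not given here, so UMIs at the 5′ end of the transcript do not check the genotype, and every direction below rests on the labels. The libraries also differed in sex-linked transcripts. Xist had 14609 UMIs in C57BL/6 replicate 1 and 3 to 25 in the other 3 libraries, while 4 Y-linked genes together had 0 UMIs there and 3568 to 4879 in the others. The study's results section describes the sequenced C57BL/6 mice as female, which C57BL/6 replicate 2 goes against, while its methods state the use of both sexes. Both Hivep3-/- libraries carried Y-linked transcripts, so results between genotypes are also given without C57BL/6 replicate 1 where that changed them.

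Cells were clustered without the 9 members or any other killer cell lectin-like gene among the clustering genes, and clusters were named from marker genes. Stage 0-like cells, the earliest after selection, numbered 349 and 115 in C57BL/6 and 368 and 403 in Hivep3-/-. Cycling-like cells numbered 1424 and 476 against 246 and 404, and iNKT2-like cells, which make IL-4, 1444 and 412 against 395 and 439. There were 219 and 123 against 134 and 126 iNKT17-like cells and 3574 and 2491 against 3111 and 2395 iNKT1-like cells, which express Tbx21. The iNKT1-like class held 5 clusters. Cluster 0 was led by Dusp1 and Il12rb2, cluster 2 by Ccl1, Gzmb and Ccl4, cluster 3 by Ccl5, Gzma and Tyrobp, cluster 4 by Ifitm2, Gzmc and Itga1, and cluster 7 by the interferon response genes Ifit3 and Ifit1. The mix of these clusters differed by genotype. Cluster 0 made up 51.1% and 49.0% of iNKT1-like cells in C57BL/6 and 24.7% and 24.9% in Hivep3-/-, and cluster 3 made up 12.2% and 10.6% against 25.0% and 30.3%. The part of this shift in differences of the whole class was not tested. Cluster 8, with 790 cells led by Tnni1 and Htra3, matched no class and stayed unnamed.

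Across classes, most members were transcripts of iNKT1-like cells. Among the 5 iNKT classes, the mean level over the 4 libraries was highest in iNKT1-like cells for 7 of the 9 members, whereas 15.6% of the 6505 genes that reached 20 CPM in some class had their highest level there. The exceptions were Klrb1a and Klrg1. Klrg1 did not reach a mean of 20 CPM in any of these classes. Its mean was 2.14 CPM in cycling-like cells, where Hivep3-/- replicate 1 held 26 UMIs and the other libraries few, and 1.61 CPM in iNKT1-like cells. Levels are UMIs of the gene in CPM of all UMIs of that class in a library, and since the classes are clusters of the same cells, the order of classes is a description without a test.

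**Figure D1:**
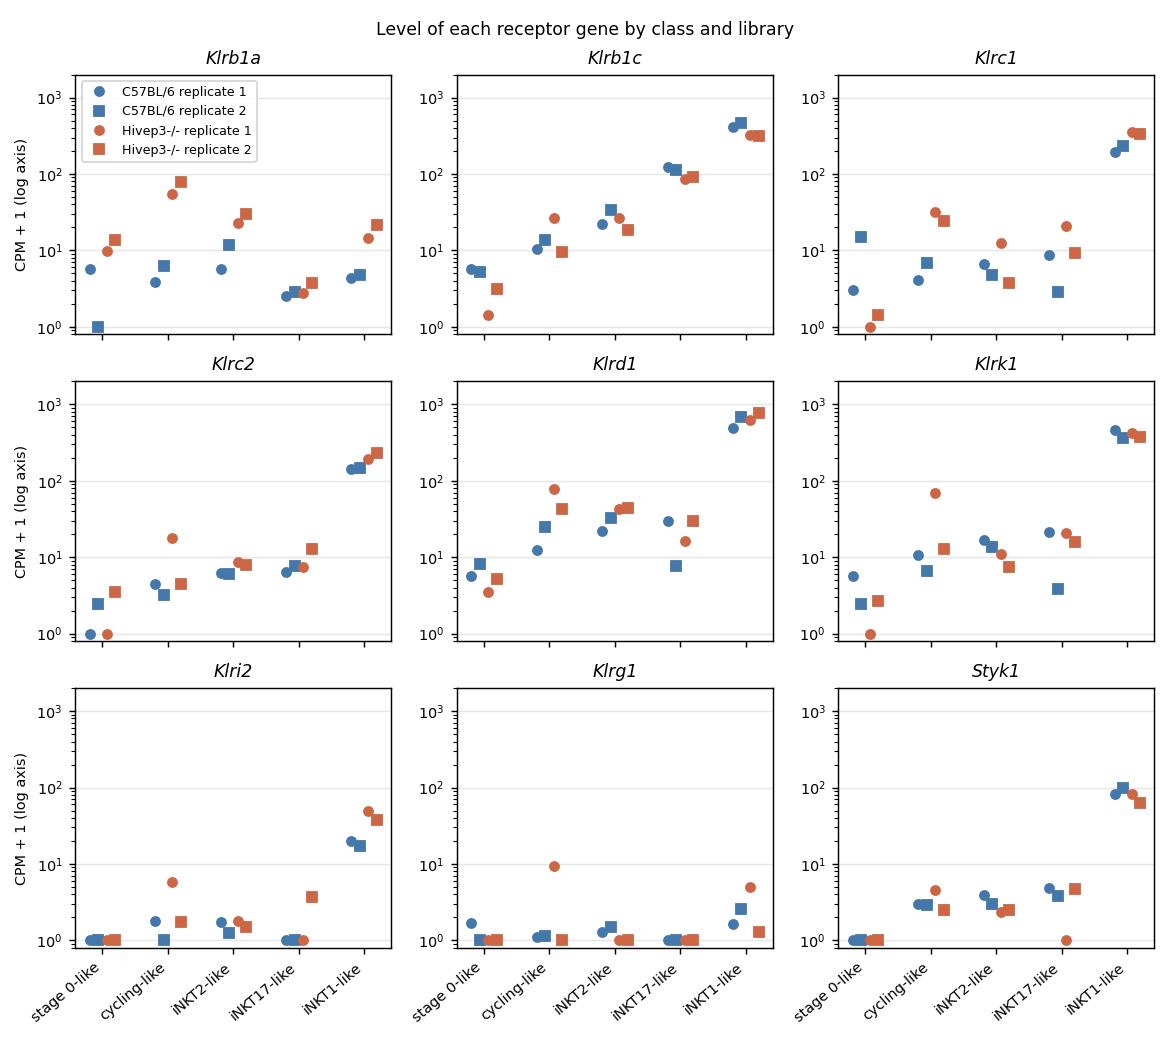
Level of each of the 9 members, in CPM on a log axis, in every library (points) of the 5 iNKT classes, with C57BL/6 and Hivep3-/- in separate colours and replicates as separate marker shapes. Klrd1 reached 487 to 764 CPM in iNKT1-like cells and at most 76.2 CPM in the other 4 iNKT classes, while Klrb1a was highest among these classes in cycling-like cells of Hivep3-/- mice.

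Klrd1, the shared CD94 subunit, had 487 and 688 CPM in iNKT1-like cells of C57BL/6 replicates 1 and 2 and 621 and 764 CPM in those of Hivep3-/-. The values of the genotypes overlapped. In cycling-like cells it had 11.6 and 23.5 CPM against 76.2 and 41.1, in iNKT2-like cells 21.0 and 31.2 against 41.6 and 43.2, in iNKT17-like cells 28.9 and 6.61 against 15.4 and 29.2, and in stage 0-like cells 4.74 and 7.10 against 2.53 and 4.22. The iNKT1-like class was the highest of the 5 in each library, with a mean step of 4.32 on the log2 scale to the cycling-like class, whereas cycling-like, iNKT2-like and iNKT17-like cells were not in the same order in every library. Within the iNKT1-like class, cluster 4 was above cluster 3 in all 4 libraries by 0.21 on the log2 scale.

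Klrc1, encoding the inhibitory partner NKG2A, had 195 and 229 CPM in iNKT1-like cells of C57BL/6 and 356 and 336 CPM in those of Hivep3-/-. Both Hivep3-/- libraries were above both C57BL/6 libraries. In the other 4 iNKT classes the highest value was 30.6 CPM, while the unnamed cluster 8 had 15.8 to 47.9 CPM. In cluster 0 the levels were 127 and 178 CPM against 352 and 296, whereas in cluster 3 they were 357 and 384 against 395 and 363. In cluster 3 the libraries of the genotypes overlapped, and in cluster 0 they did not.

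Klrc2, encoding the activating partner NKG2C, followed a similar order, with 141 and 145 CPM in iNKT1-like cells of C57BL/6 against 191 and 227 in Hivep3-/- and at most 16.6 CPM in the other 4 iNKT classes. Both Hivep3-/- libraries were above both C57BL/6 libraries in the iNKT1-like class, in cluster 0 (109 and 120 against 179 and 236 CPM) and in cluster 7 (103 and 97.3 against 182 and 217 CPM). In cluster 3 they overlapped, at 206 and 242 against 192 and 210 CPM.

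Klrk1, encoding NKG2D, had 461 and 362 CPM in iNKT1-like cells of C57BL/6 and 417 and 372 CPM in those of Hivep3-/-. The genotypes overlapped. Among the iNKT1-like clusters, cluster 3 had the most, with 671 and 608 CPM against 564 and 468. In the other 4 iNKT classes the highest value was 68.9 CPM, in cycling-like cells of Hivep3-/- replicate 1, and the other libraries of the cycling-like class had 5.50 to 11.9 CPM. That library therefore stood apart from its replicate.

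Klrb1c, encoding NK1.1, had 417 and 463 CPM in iNKT1-like cells of C57BL/6 and 321 and 308 CPM in those of Hivep3-/-. The Hivep3-/- libraries were both lower, and this was the direction in each of clusters 0, 2, 3, 4 and 7. Klrb1c also had a clear level in a second class. In iNKT17-like cells it had 122 and 110 CPM in C57BL/6 against 84.3 and 89.3 in Hivep3-/-, and in every library this was above iNKT2-like cells, by 2.05 on average on the log2 scale. The step from iNKT1-like to iNKT17-like cells was 1.88 ± 0.14 (SD over 4 libraries), the same sign in each.

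Klri2 was rarer, with 19.2 and 16.3 CPM in iNKT1-like cells of C57BL/6 and 47.9 and 36.5 CPM in those of Hivep3-/-. Both Hivep3-/- libraries were higher, and the other 4 iNKT classes had 0 to 15 UMIs per library. In C57BL/6, Klri2 was concentrated in clusters 3 and 4, with 44.2 and 43.1 CPM in cluster 3 and 40.02 and 45.1 in cluster 4 against 9.18 and 5.47 in cluster 0. In Hivep3-/-, cluster 0 had 31.0 and 30.8 CPM and cluster 3 had 49.0 and 37.4. The genotypes overlapped in cluster 3 and not in cluster 0.

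Styk1, the kinase, had 80.3 and 98.4 CPM in iNKT1-like cells of C57BL/6 and 80.6 and 62.6 CPM in those of Hivep3-/-, which overlapped. In the other 4 iNKT classes it had at most 3.91 CPM. In clusters 3 and 4 the C57BL/6 libraries were above the Hivep3-/- libraries, at 121 and 134 against 81.1 and 72.4 CPM in cluster 3 and 136 and 179 against 83.7 and 65.8 CPM in cluster 4.

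Klrg1 was rare. UMIs of it were found in 14 and 23 cells of C57BL/6 and in 81 and 6 cells of Hivep3-/-. Of the 233 UMIs in Hivep3-/- replicate 1, 119 were in cluster 13, an unnamed cluster of 56 cells led by S1pr5, Gzma and Zeb2, in which 32 of that library's 40 cells had a Klrg1 UMI. Cluster 13 had 5, 3 and 8 cells in C57BL/6 replicates 1 and 2 and Hivep3-/- replicate 2, of which 0, 2 and 2 had one. The level of Klrg1 in Hivep3-/- thus rests largely on 1 library.

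Klrb1a was distributed unlike the others. In cycling-like cells it had 2.87 and 5.22 CPM in C57BL/6 and 54.2 and 76.6 CPM in Hivep3-/-. In iNKT2-like cells it had 4.64 and 10.9 CPM against 22.2 and 29.2, and in iNKT1-like cells 3.38 and 3.84 against 13.5 and 20.4. The Hivep3-/- libraries were higher in all 3 classes without overlap. In stage 0-like cells it had 7, 0, 21 and 30 UMIs in the 4 libraries (C57BL/6 replicates 1 and 2, then Hivep3-/- replicates 1 and 2) and in iNKT17-like cells 2, 2, 2 and 3, so nothing can be read from the iNKT17-like class at this depth. In the unnamed cluster 8 it had 216 and 210 CPM in Hivep3-/- (590 and 763 UMIs), above the 5 iNKT classes in both libraries, and 39.9 and 8.71 CPM in C57BL/6 (41 and 2 UMIs). Cluster 8 had 125 and 20 cells in C57BL/6 against 271 and 374 in Hivep3-/-. No test was run there, because C57BL/6 replicate 2 had under 50 cells.

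**Figure D2:**
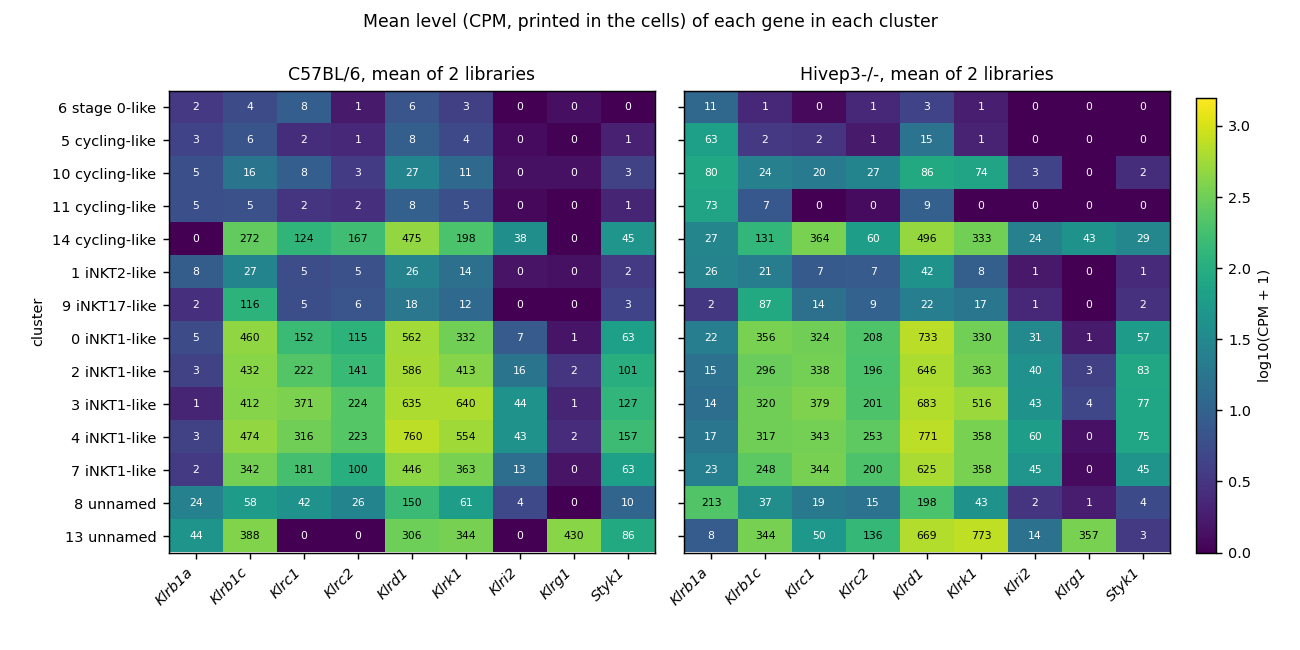
Mean level of each member over the 2 libraries of a genotype in each cluster shown, as log10(CPM + 1) in shades, brighter for higher levels. C57BL/6 is on the left and Hivep3-/- on the right. Klrb1c, Klrc1, Klrc2, Klrd1 and Klrk1 are bright in clusters 0, 2, 3, 4 and 7 of both genotypes, and Klrb1a is bright in cluster 8 of Hivep3-/-.

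The Hivep3-/- libraries were then compared with C57BL/6 on UMI sums per library and class, with edgeR's quasi-likelihood test fitted over all genes and Benjamini-Hochberg adjustment. All log2 differences are Hivep3-/- minus C57BL/6, with the standard error of the fit. In iNKT1-like cells 9 members were tested and 2, Klrb1a and Klri2, passed an adjusted p of 0.05, where 0.913% of the 10841 genes tested passed. In cycling-like cells 2 of the 7 members tested passed, Klrb1a and Klrc1, where 2.8% of 10405 genes did. In the sum of all cells 1 of 9 passed, Klrb1a, where 0.765% of 12291 genes did. No member passed in stage 0-like cells (1 tested, 0.24% of all genes called), iNKT2-like cells (6 tested, 0.253%) or iNKT17-like cells (3 tested, 0.0928%). In these 3 classes 1 (Klrb1a), 3 (Klrb1a, Klrd1 and Klrk1) and 1 (Klrb1c) members had an unadjusted p under 0.05 in edgeR, and DESeq2 called 0, 1 (Klrb1a) and 0. The share of all genes with an unadjusted p under 0.05 is not given here, so nothing is read from those counts. The median difference of the members tested was 0.47 in iNKT1-like cells and 1.59 in cycling-like cells, beside -0.00154 and 0.0273 for all genes tested there.

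Klrb1a rose in Hivep3-/- iNKT1-like cells by 2.16 ± 0.29 (log2, SE, edgeR adjusted p = 0.0245), from 3.61 ± 0.32 CPM (SD, n = 2) to 17.0 ± 4.92 CPM (SD, n = 2). In cycling-like cells it rose by 3.95 ± 0.34 (edgeR adjusted p = 0.00351), from 4.05 ± 1.66 to 65.4 ± 15.8 CPM, and in all cells by 3.11 ± 0.27 (edgeR adjusted p = 0.00859). The call in cycling-like cells held in all 15 alternative settings tried. That in iNKT1-like cells was lost without C57BL/6 replicate 1 (edgeR adjusted p = 0.0837) and without C57BL/6 replicate 2 (edgeR adjusted p = 0.0590), and that in all cells without C57BL/6 replicate 1 (edgeR adjusted p = 0.0506), with log2 differences of 2.08, 2.25 and 2.97. Within single clusters Klrb1a rose in cluster 3 by 3.51 ± 0.53 (edgeR adjusted p = 0.0335, 0.266% of genes called), in cluster 7 by 3.03 ± 0.58 (edgeR adjusted p = 0.0359, 0.433% called) and in the cycling cluster 5 by 4.15 ± 0.27 (edgeR adjusted p = 0.000319, 2.39% called). The C57BL/6 side was near 0, with 1 and 2 UMIs in cluster 3 against 70 and 56 in Hivep3-/-. In cluster 7 it had 3 and 2 UMIs against 33 and 28, so the sizes of these 2 differences are uncertain. In cluster 0 the difference was 2.18 (edgeR adjusted p = 0.0516, 0.113% called), in iNKT2-like cells 1.78 (edgeR adjusted p = 0.153) and in stage 0-like cells 1.64 (edgeR adjusted p = 0.534). The difference was larger in cycling-like than in iNKT1-like cells by 1.76 ± 0.26 in a test of the interaction (edgeR adjusted p = 0.00267, 6.81% of genes called), and by 1.38 without C57BL/6 replicate 1 (edgeR adjusted p = 0.0511).

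Klri2 rose in Hivep3-/- iNKT1-like cells by 1.17 ± 0.17 (edgeR adjusted p = 0.0297), from 17.8 ± 2.05 to 42.2 ± 8.03 CPM (SD, n = 2 per genotype). Its direction held in every alternative, but the call was lost without C57BL/6 replicate 1 (edgeR adjusted p = 0.0669), C57BL/6 replicate 2 (edgeR adjusted p = 0.122) or Hivep3-/- replicate 1 (edgeR adjusted p = 0.124). Cluster 0, poor in Klri2 in C57BL/6, held a smaller share of the class in Hivep3-/-, and cluster 3, rich in it, a larger one. Klri2 also rose in cluster 7, by 1.71 ± 0.33 (edgeR adjusted p = 0.0359). In clusters 0 and 2 the differences were 1.98 and 1.23 (edgeR adjusted p = 0.0516 and 0.0509, with 0.113% and 0.323% of genes called), and in cluster 3 the difference was -0.08 ± 0.19. Whether clusters differed from each other in this was not tested. The gene of its known partner, Klre1, had 111 and 161 CPM in iNKT1-like cells of C57BL/6 against 147 and 157 in Hivep3-/-, which overlapped.

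Klrc1 had a difference of 0.63 ± 0.13 in iNKT1-like cells (edgeR adjusted p = 0.109), with 212 ± 23.7 CPM in C57BL/6 against 346 ± 14.2 in Hivep3-/- (SD, n = 2). DESeq2 called it there (adjusted p = 0.0149), as did edgeR without a filter on low counts (adjusted p = 0.00419). In cycling-like cells it passed the test at 2.52 ± 0.33 (edgeR adjusted p = 0.0156), from 52 and 42 UMIs in C57BL/6 and 96 and 128 in Hivep3-/-. Most of the latter were in cluster 14, a cycling cluster of 60 cells, which held 8 and 14 of these UMIs in C57BL/6 and 78 and 109 in Hivep3-/-. Without cluster 14, an alternative chosen after these counts were seen, the difference was 0.44 (edgeR adjusted p = 0.662), with 2.59 and 3.91 CPM against 6.35 and 3.63.

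The other members did not pass in iNKT1-like cells. Klrb1c was lower in both Hivep3-/- libraries, with 440 ± 32.7 CPM in C57BL/6 against 315 ± 9.23 (SD, n = 2), a difference of -0.56 ± 0.13 (edgeR adjusted p = 0.143). DESeq2 called it (adjusted p = 0.0372), as did edgeR without a filter on low counts (adjusted p = 0.0167). In iNKT17-like cells the difference of Klrb1c was -0.49 ± 0.19 (edgeR adjusted p = 0.797). Klrc2 had a difference of 0.47 ± 0.16 (edgeR adjusted p = 0.346), Klrd1 of 0.17 ± 0.21 (edgeR adjusted p = 0.883), Klrk1 of -0.14 ± 0.15 (edgeR adjusted p = 0.862), Styk1 of -0.40 ± 0.15 (edgeR adjusted p = 0.460) and Klrg1 of 0.95 ± 0.94 (edgeR adjusted p = 0.844). The nearest to a call among single clusters was Styk1 in cluster 4, at -1.15 ± 0.19 (edgeR adjusted p = 0.0654, 0.153% of genes called).

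Whether the genotype difference of a member was unlike that in iNKT1-like cells was tested by the interaction in each other class. Including Klrb1a, 5 members differed in cycling-like cells, 2 in iNKT2-like cells (Klrd1 by 0.44 and Klrk1 by -0.78, where 4.96% of genes differed), 1 in stage 0-like cells (Klrc1 by -5.51, where 3.47% did) and 0 in iNKT17-like cells (0.689%). Each of the 3 calls outside cycling-like cells was lost when at least 1 of the libraries was left out. In cycling-like cells, Klrc1, Klrd1, Klrk1 and Klrg1 did not pass without cluster 14, an alternative added after seeing the data.

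**Figure D3:**
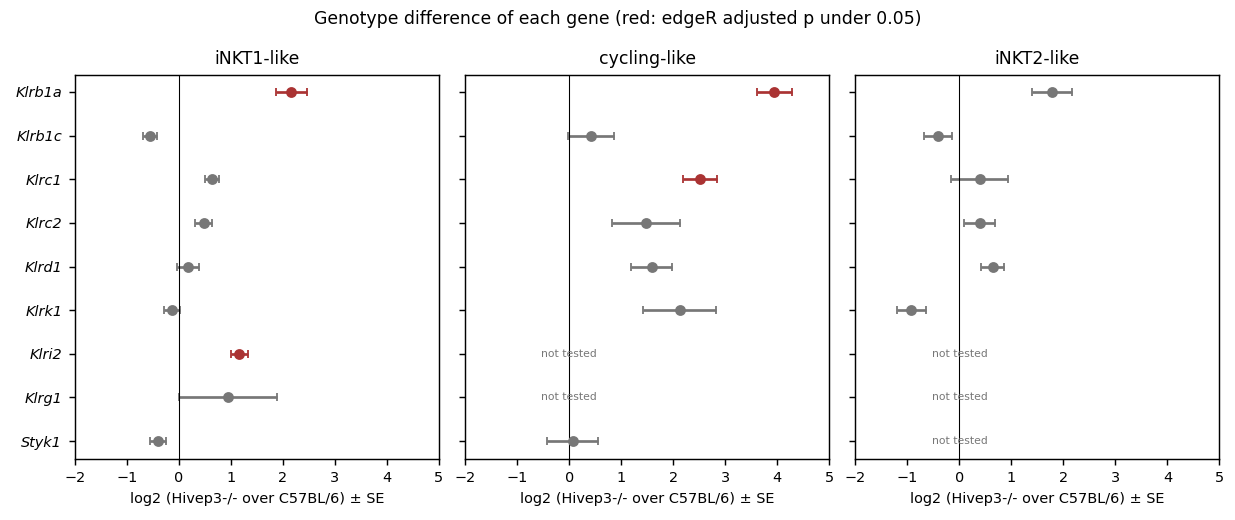
Log2 difference of each tested member, Hivep3-/- minus C57BL/6, with its standard error, in iNKT1-like, cycling-like and iNKT2-like cells. Red points passed an edgeR adjusted p of 0.05 and grey points did not. Klrb1a lies at 2.16 in iNKT1-like and 3.95 in cycling-like cells, and Klrb1c at -0.56 in iNKT1-like cells.

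Tyrobp and a few other transcripts of natural killer cells had higher values in Hivep3-/- in the same class. The summed level of 6 natural killer markers (Ncr1, Eomes, Itga2, Gzmk, Cma1 and Tyrobp) in iNKT1-like cells was 21.3 and 23.01 CPM in C57BL/6 and 96.3 and 91.2 CPM in Hivep3-/-, with 4, 4, 5 and 5 of the 6 detected and Cma1 at 0 in all 4 libraries. Most of it was Tyrobp, and the other 5 markers summed to 3.69 and 5.55 against 20.4 and 19.5 CPM. No test of the sum was run. In cluster 3 it was 62.0 and 90.3 against 307 and 247 CPM. Every iNKT1-like cell of each library had a UMI of Cd3e, Cd3d, Cd3g or Trac, genes of the T cell receptor complex. Of all kept cells, 10 and 2 in C57BL/6 and 6 and 7 in Hivep3-/- had none, where 8 and 7 against 17 and 15 were B cell-like. Such a UMI therefore does not separate cell types. Trav11, Trac, Cd3e and Zbtb16, 4 genes expressed by iNKT cells, were all detected in iNKT1-like cells, at 1703 to 2050 CPM in sum. Trac and Cd3e are among the T cell receptor genes above, so this sum does not separate iNKT cells from other T cells. The part of natural killer cells in the differences above was not tested.

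Some genes of a wider list of adaptors and signalling genes, not all of them tied to these receptors, rose in Hivep3-/-. Of 21 genes of adaptors and signalling, 4 rose in iNKT1-like cells (Tyrobp, Cd247, Plcg2 and Sh2d1b1, where 0.646% of all genes tested were called higher by edgeR), 4 in cycling-like cells (Fcer1g, Cd247, Plcg2 and Tyrobp, 1.39% called higher) and 4 in all cells (Tyrobp, Plcg2, Fcer1g and Sh2d1b1, 0.439% called higher). The list's median difference in iNKT1-like cells was 0.07, since most of its genes did not pass. Tyrobp, encoding DAP12, had 17.6 and 17.5 CPM in iNKT1-like cells of C57BL/6 and 75.9 and 71.7 CPM in those of Hivep3-/-, and rose by 1.996 ± 0.14 (edgeR adjusted p = 0.00163). It is also 1 of the natural killer markers above. Cd247, encoding the CD3 zeta chain, had 149 and 151 against 324 and 310 CPM and rose by 1.01 ± 0.12 (edgeR adjusted p = 0.0156). It also rose in cycling-like cells (1.03), iNKT2-like cells (1.46) and iNKT17-like cells (1.23), but it is among the genes the study named from these samples, so this is not independent evidence. Plcg2, a phospholipase downstream of such receptors, had 4 and 7 against 75 and 52 UMIs and rose by 2.94 ± 0.41 (edgeR adjusted p = 0.0286). Sh2d1b1, encoding the adaptor EAT-2, had 0 and 0 against 26 and 20 UMIs (edgeR adjusted p = 0.0488).

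Fcer1g, encoding the signalling chain that NK1.1 uses, had 330 and 351 CPM in iNKT1-like cells of C57BL/6 and 628 and 786 in those of Hivep3-/-, where it was not called by edgeR. It rose in cycling-like cells by 3.47 ± 0.14 (edgeR adjusted p = 0.000443), from 23.9 and 26.9 to 314 and 316 CPM. In stage 0-like cells it fell, by 1.80 on the log2 scale (edgeR adjusted p = 0.0251), from 150 and 76.6 to 39.99 and 33.8 CPM. Hcst, encoding DAP10, had 872 and 856 against 830 and 935 CPM in iNKT1-like cells, which overlapped. 

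Of 18 other lectin genes of the complex found in the matrices, Klrb1f, an NKR-P1 gene, rose in cycling-like cells, with 8 and 3 against 29 and 18 UMIs (3.51 ± 0.63, edgeR adjusted p = 0.0350), and in the other classes and all cells edgeR called none. In cycling-like cells all 5 tested had an unadjusted p under 0.05 in edgeR (Cd69, Clec2d, Clec2i, Klrb1f and Klre1), with a median difference of 1.27, and DESeq2 called 3 of them (Cd69, Clec2d and Klrb1f). In iNKT1-like cells 8 were tested, with a median difference of 0.22, and 3 had an unadjusted p under 0.05 in edgeR (Klrb1f, Klrc3 and Klri1), of which DESeq2 called 0. In all cells 10 were tested, and 5 had an unadjusted p under 0.05 (Klrb1, Klrb1f, Clec12a, Klrc3 and Klri1), of which DESeq2 called 1, Klrb1f. Of 12 ligand genes found in the matrices, edgeR called none in any class. In cycling-like cells 4 were tested, 2 had an unadjusted p under 0.05 (Clec2d and Clec2i, which are also among the lectins above) and DESeq2 called 1, Clec2d. In iNKT1-like cells 5 were tested, with a median difference of 0.32, and 2 had an unadjusted p under 0.05 (Cdh1, encoding the KLRG1 ligand E-cadherin, and H2-T23, encoding Qa-1), of which DESeq2 called 1, Cdh1. The share of all genes with an unadjusted p under 0.05 is not given here, nor is that called by DESeq2 in cycling-like cells. Nothing is therefore read from those counts of lectin and ligand genes.

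To compare how many cells carried each transcript, every cell was thinned to 2000 UMIs, which left out 289 and 66 iNKT1-like cells of C57BL/6 and 39 and 24 of Hivep3-/-. An exact two-sided permutation test of 2 libraries against 2 cannot give a p below 0.333, so these shares are values without a possible call. Klrd1 was found in 52.3% and 62.3% of C57BL/6 and 64.5% and 70.8% of Hivep3-/- iNKT1-like cells, and unthinned in 66.8% and 78.2% against 89.3% and 91.7%. Klrc1 was found in 20.3% and 24.4% against 35.9% and 34.0%, and Klrc2 in 21.7% and 21.2% against 29.1% and 33.7%. For these 3 genes both Hivep3-/- libraries were higher.

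The share with an NK1.1 transcript was lower in Hivep3-/- at equal depth. Klrb1c was found in 53.8% and 58.1% of thinned C57BL/6 cells and in 44.5% and 43.5% of Hivep3-/- cells, but unthinned in 70.2% and 80.0% against 76.7% and 72.6%, where the genotypes overlapped. Klrk1 was found in 45.5% and 37.8% against 43.7% and 38.9%, Styk1 in 14.1% and 16.1% against 13.5% and 11.2% and Klri2 in 3.17% and 2.56% against 7.68% and 6.16%. Cells at the earliest stage also had a few UMIs of these genes. In 1074 thinned stage 0-like cells of all libraries, with an unthinned median of 4519 UMIs against 4831 in iNKT1-like cells, Klrd1 was found in 1.02%, Klrb1c in 0.466%, and Styk1 and Klri2 in 0 cells, which allows up to 0.343% (95% exact binomial limit, counting error only). The iNKT1-like shares of these 4 genes are above that level in every library.

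Klrb1a was found in 0.457% and 0.866% of thinned C57BL/6 and 1.89% and 2.91% of Hivep3-/- iNKT1-like cells. Stage 0-like cells of all libraries had 1.40%, with 0.781% and 0% in C57BL/6 against 1.41% and 2.22% in Hivep3-/-. The iNKT1-like shares were thus near those of stage 0-like cells, which were also higher in both Hivep3-/- libraries. In cycling-like cells the shares were 0.636% and 0.842% against 5.81% and 13.9%, and in cluster 8 they were 8.94% and 0 of 20 cells against 26.3% and 28.8%. Unthinned, 60.1% and 60.2% of Hivep3-/- cells of cluster 8 had a Klrb1a UMI against 16.8% and 10.0% in C57BL/6. In cluster 8 of Hivep3-/- mice the transcript was thus found in most cells. The B cell-like cluster had Klrb1a in 5 of 46 thinned cells and Klrd1 in 9 of 46, so cells of another type were not free of these UMIs.

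Co-detection asks whether cells with a Klrd1 UMI more often had a UMI of a partner. The odds ratio was taken per library in thinned iNKT1-like cells, pooled over clusters, and is given on the log2 scale as a description over cells. Klrc2 had the highest mean ratio of the members, with log2 odds ratios of 0.60 and 0.95 in C57BL/6 and 0.55 and 0.43 in Hivep3-/-. Klrd1 was found in 61.5% and 75.1% of Klrc2-positive and 49.8% and 58.8% of Klrc2-negative cells of C57BL/6, and in 70.7% and 74.8% against 62.0% and 68.8% in Hivep3-/-. The other NKG2 partner did not follow. For Klrc1 the log2 odds ratios were -0.24 and 0.41 in C57BL/6 and -0.12 and -0.26 in Hivep3-/-, positive in 1 of 4 libraries, although the proteins of Klrc1 and Klrd1 form 1 receptor.

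Besides Klrc2, the ratio was above 0 in all 4 libraries for Klrb1c (0.40, 0.49, 0.35 and 0.43), Styk1 (0.26, 0.66, 0.23 and 0.14) and Klrb1a (0.17, 0.07, 0.07 and 0.07, from 8 to 49 cells with both). Without the highest doublet scores the mean for Klrb1a was -0.040, and thinning to 1000 UMIs left 2 members above 0 in all libraries in place of 4. Klrk1 had 0.31 and 0.51 in C57BL/6 and -0.01 and 0.01 in Hivep3-/-. Klri2 had 0.35, -0.45, 0.44 and 0.16, which were of either sign. Genes outside the group gave a scale for these values, with a mean over libraries of 0.84 for Nkg7, an abundant gene of cytotoxic granules, 0.08 for Klre1 and 0.05 for Il2rb. The values of Nkg7 were 1.01 and 1.58 against 0.48 and 0.28, so an abundant gene without a known link to CD94 exceeded every member on average. No ratio differed between genotypes by the exact permutation test, which could not pass 0.05 (smallest p = 0.333).

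**Figure D4:**
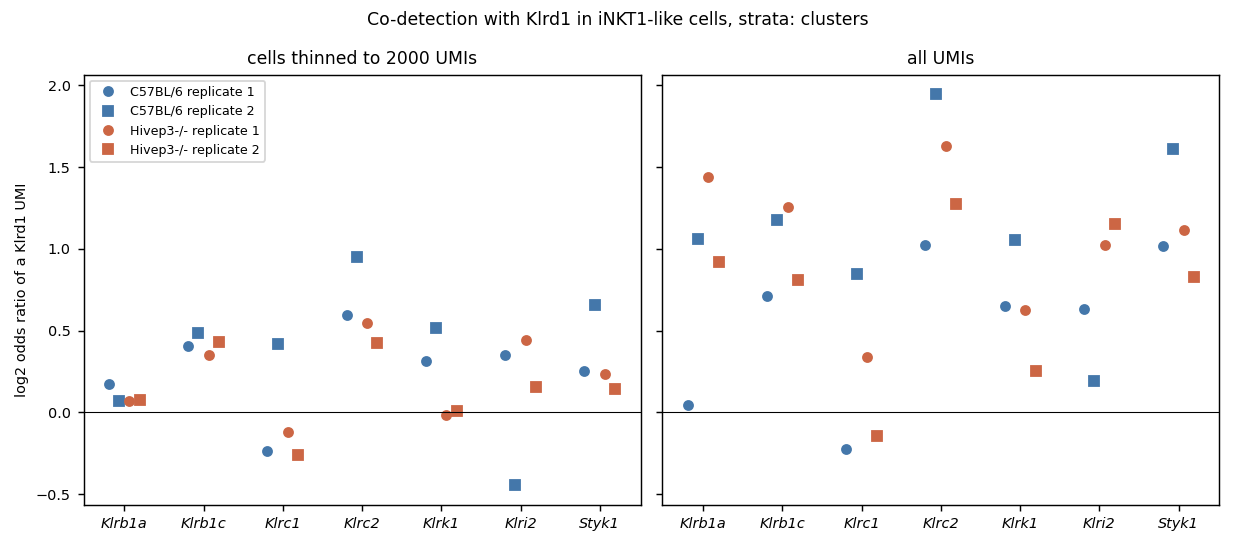
Log2 odds ratio of a Klrd1 UMI in iNKT1-like cells with against without a UMI of each other member except Klrg1, pooled over clusters. The left panel shows cells thinned to 2000 UMIs and the right panel all UMIs, with 1 point per library. On the left, Klrc2, Klrb1c, Styk1 and Klrb1a lie above 0 in all 4 libraries, which 2 members did after thinning to 1000 UMIs. Klrc1 lies above 0 there in 1.

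Among thinned Klrd1-positive iNKT1-like cells, Klrc1 without Klrc2 was found in 15.0% and 20.3% of C57BL/6 and 26.8% and 23.6% of Hivep3-/- cells. Klrc2 without Klrc1 was found in 20.8% and 18.9% against 23.4% and 26.3%, and both in 4.71% and 6.75% against 8.43% and 9.29%. Neither was found in 59.5% and 54.1% against 41.3% and 40.8%. These shares pool clusters whose mix differed by genotype. In cluster 0 neither was found in 69.0% and 60.8% against 46.3% and 41.6%, where the genotypes did not overlap, and in cluster 3 in 41.9% and 40% against 35.6% and 41.6%, where they did. Klrc1 and Klrc2 themselves had a mean log2 odds ratio of -0.40 ± 0.42 (SD over 4 libraries), above 0 in 1 of 4.

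Between other members the pairs above 0 in all 4 libraries included Klrc1 with Klrk1 (0.77 ± 0.17), Klrc2 with Klri2 (0.75 ± 0.04), Klrc2 with Klrk1 (0.64 ± 0.47) and Klrb1c with Klrc1 (0.43 ± 0.07). Klrb1c was positive in all 4 libraries with Klrc1, Klrc2, Klrd1, Klrk1 and Styk1. A thinned iNKT1-like cell had UMIs of 2.12 and 2.24 members on average in C57BL/6 and 2.41 and 2.41 in Hivep3-/-, and 11.3% and 11.1% against 6.48% and 4.94% had none. Over the whole class, both C57BL/6 libraries were thus below both Hivep3-/- libraries in members per cell at equal depth. This was also the order in clusters 0, 2 and 7. It was reversed without overlap in cluster 3, at 2.72 and 2.89 in C57BL/6 against 2.61 and 2.57 in Hivep3-/-. Cluster 4 was likewise reversed, at 2.67 and 2.84 against 2.55 and 2.51. The part of the cluster mix in the class-wide order was not tested.

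The genes whose levels ran most like each member over the 20 sums of library and class, among 6497 genes, were mostly other iNKT1 transcripts. For Klrd1 these were Xcl1 (Pearson r = 0.983), Lrrk1 and Nkg7, for Klrk1 Nkg7 (0.977), Anxa1 and Xcl1, for Klrc1 Itga1 (0.960), Nkg7 and Klre1, and for Klrc2 Lrrk1 (0.972), Gzmb and Fgl2. For Klrb1c they were Pvrig (0.971), Cd101 and AU020206, for Klri2 Kcnj8 (0.956), Hopx and Itga1, and for Styk1 Gm33104 (0.960), Fgl2 and Gzmb. Klrb1a again stood apart, and its nearest genes were Fuca2 (0.757), Stk38 and Htra3. The points share libraries and cells, so these values are descriptions.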

How the data were processed

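Thymic iNKT cells of 4 mice were profiled with 10x Genomics 5′ chemistry and sequenced on a NovaSeq. Per the labels, the authors used Cell Ranger 3.1.0 with mm10 and Seurat 3.1.4, and deposited raw UMI counts per gene and cell for each library. The members and lists were chosen with earlier results of these data known.

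Cells with at least 500 and fewer than 4100 genes, at least 1000 UMIs and under 6% mitochondrial UMIs were kept. With R 4.3.3 and Seurat 5.3.0, 2000 variable genes without Hivep3, 26 genes named in the study, genes of sex, T cell receptor segments, the members and other Klr genes gave 30 principal components, corrected between libraries by mutual nearest neighbours (20 neighbours) and clustered by the Louvain method at a resolution of 0.8. Clusters were named by marker lists, and B cell-like cells by at least 2 UMIs of 5 markers, a threshold chosen after seeing the data. Scrublet (scanpy 1.11.5) marked 0 to 5 cells per library and was taken as not having worked, so the 5% with the highest scores were removed as an alternative.

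UMI counts were summed per library and class and tested with edgeR 4.0.16 (filterByExpr, TMM scaling, quasi-likelihood test, adjusted over all genes of a fit), and with DESeq2 1.42.0 as an alternative. The script was tested on simulated data. Differences between classes in the genotype effect were tested with library as a block, in classes paired with iNKT1-like cells. Single clusters were tested where each library had at least 50 cells. With 2 mice per genotype, p-values measure the spread between these mice. Shares and odds ratios used cells thinned to 2000 UMIs. Intervals cover counting error only, and levels carry no interval. Other genes are named where a list gene was called, as the 3 genes most like a member, or as known partners (Klre1, Hcst, Fcer1g) and comparison genes (Nkg7, Il2rb). Replicate numbers did not pair the mice.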

Additional observations from a re-analysis of the deposited data

Results flagged for a closer look

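The genotype difference of 5 members was unlike that in iNKT1-like cells in at least 1 other class, by edgeR tests of the interaction with adjusted p over all genes of each fit. In cycling-like cells the difference (Hivep3-/- minus C57BL/6, log2) exceeded that in iNKT1-like cells by 1.76 for Klrb1a, 1.89 for Klrc1, 1.41 for Klrd1, 2.05 for Klrk1 and 3.55 for Klrg1, where 6.81% of all genes tested differed. Without cluster 14, which was left out after seeing the data, Klrb1a was the one of these 5 to pass, at 1.82 (edgeR adjusted p = 0.00119). Without C57BL/6 replicate 1, Klrc1 was the one to pass, and Klrb1a had 1.38 (edgeR adjusted p = 0.0511). Klrk1 and Klrg1 also failed without C57BL/6 replicate 2 and without Hivep3-/- replicate 1. Leaving out 1 library moved the value for Klrg1 between -1.91 and 4.12. In cycling-like cells Klrd1 had 11.6 and 23.5 against 76.2 and 41.1 CPM, and Klrk1 9.72 and 5.50 against 68.9 and 11.9. All 26 Klrg1 UMIs of cycling-like cells in Hivep3-/- came from replicate 1 and from cluster 14.

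In iNKT2-like cells the difference for Klrd1 exceeded that in iNKT1-like cells by 0.44, and that for Klrk1 differed from it by -0.78, where 4.96% of genes differed. The call for Klrd1 was lost without C57BL/6 replicate 1 or Hivep3-/- replicate 1, and that for Klrk1 without C57BL/6 replicate 1 or Hivep3-/- replicate 2. In stage 0-like cells the value for Klrc1 was -5.51, which rests on 3 and 10 UMIs in C57BL/6 and 0 and 1 in Hivep3-/-, where 3.47% of genes differed. It was lost without C57BL/6 replicate 2 (-4.03, edgeR adjusted p = 0.184).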

How the results depend on the processing

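With 2 mice per genotype, leaving out 1 leaves a lone library that is assumed to vary like the other genotype. The number of members called then ranged from 0 to 3 in all cells (1 with all libraries), 2 to 4 in cycling-like cells (2), 0 to 1 in iNKT2-like cells (0), 0 to 2 in iNKT1-like cells (2) and 2 to 10 for differences unlike those in iNKT1-like cells (8). Without a filter on low counts, 6, 1, 6, 2 and 4 members were called in all, stage 0-like, cycling-like, iNKT2-like and iNKT1-like cells, and with DESeq2 4 in all cells, 4 in cycling-like, 1 in iNKT2-like and 4 in iNKT1-like cells. With the replicate block edgeR called 2 members in all cells, 3 among cycling-like, 1 among iNKT2-like and 2 among iNKT1-like cells, and 0 in the other classes. The numbers did not pair the mice (r = 0.000776 between the replicate differences of the genotypes over 12291 genes).

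In cycling-like cells 1 member was called at a resolution of 0.4, without correction between libraries, without the highest doublet scores, with the members among the variable genes and without cluster 14, and 4 with the other cell filter, which gave 2 in all cells. At a resolution of 0.4, 3 differences unlike those in iNKT1-like cells were called, and without cluster 14, 1 of the 5 in cycling-like cells remained (Klrb1a). Apart from the other cell filter, the number of all genes called in cycling-like cells under these settings is not given here. The same holds for the differences unlike those in iNKT1-like cells at a resolution of 0.4 and without cluster 14. Nothing is therefore read from these counts of members. Thinning to 1000 UMIs left 2 members with an odds ratio above 1 in all libraries, in place of 4.

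Some values changed sign. Klrc1 in cycling-like cells had -0.72 without correction between libraries, and its difference from iNKT1-like cells was -0.23 at a resolution of 0.4 and -0.22 without cluster 14. That of Klrg1 ranged from -1.91 to 4.12 when 1 library was left out (the lower value without Hivep3-/- replicate 1) and was -4.73 at a resolution of 0.4 and -4.35 without cluster 14. The log2 odds ratio of Klrb1a with Klrd1 was -0.040 without the highest doublet scores. The cause was not tested.

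Over all genes, 94, 21, 291, 24, 7 and 99 were called in all, stage 0-like, cycling-like, iNKT2-like, iNKT17-like and iNKT1-like cells, against 965, 200, 1082, 342, 90 and 468 without the filter and 212, 90, 484, 51, 85 and 150 with the replicate block. DESeq2 called 402 in all cells, 68 in iNKT2-like and 193 in iNKT1-like cells. Its count over all genes in cycling-like cells is not given here, so the members it called there have no share beside them. The other cell filter gave 222 in all, 12 in stage 0-like, 753 in cycling-like and 46 in iNKT2-like cells. In iNKT2-like cells 42 and 39 were called at resolutions of 0.4 and 1.2. Leaving out 1 library gave 14 to 112 in all cells, 17 to 159 in stage 0-like, 140 to 292 in cycling-like, 2 to 58 in iNKT2-like, 19 to 116 in iNKT17-like and 49 to 71 in iNKT1-like cells. For differences unlike those in iNKT1-like cells, 790 genes were called in cycling-like, 385 in stage 0-like, 557 in iNKT2-like and 74 in iNKT17-like cells. Without the filter these were 1410 in cycling-like and 195 in iNKT17-like cells, at a resolution of 1.2 838 in iNKT2-like cells, and with 1 library left out 251 to 1162 in cycling-like, 132 to 343 in stage 0-like and 56 to 195 in iNKT17-like cells.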

Other observations

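Cluster 12, 106 cells led by Malt1 and Dennd4a, and cluster 13 had too few cells for a test. In cluster 12 Klrb1c had 71, 1, 9 and 2 UMIs in C57BL/6 replicates 1 and 2 and Hivep3-/- replicates 1 and 2, and Klrd1 had 59, 4, 8 and 5. In cluster 13 Klrk1 had 0, 4, 215 and 16 UMIs and Klrd1 5, 1, 145 and 21, so nearly all of these UMIs came from Hivep3-/- replicate 1.

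In the B cell-like cluster of 47 cells, Klrb1a had 0 and 0 UMIs in C57BL/6 and 28 and 4 in Hivep3-/-, and Klrd1 had 5 and 1 against 28 and 20. Styk1 had 0, 0, 0 and 1 UMIs and Klri2 had 0 in all 4 libraries.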
